A study of Homo sapiens with 16 samples.

Results

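The comparison described here set ALKBH5 knockdown THP-1 cells, labelled A5-KD, against wild-type THP-1 control cells at the last time of a chase experiment, 7.5 h after the end of metabolic labelling. It rests on 4 of the 16 libraries of the series, 2 A5-KD libraries and 2 control libraries. THP-1 is a human monocytic leukaemia line. Cells of both genotypes were given 100 µM 4-thiouridine (4sU), a uridine analogue, for 1 h, and were then washed and kept in 10 mM unlabelled uridine until collection. Polyadenylated RNA was sequenced by SLAM-seq, in which 4sU built into new RNA is read as T-to-C conversions. How the knockdown was made, and whether the replicates came from separate cultures, is not given in the sources used here, so that p-values measure only the spread between these libraries, which may be technical.

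ALKBH5 is a demethylase that takes the methyl group off N6-methyladenosine (m6A) in RNA. The mark is laid down by the METTL3 and METTL14 methyltransferase complex and is bound by reader proteins, among them the YTH family, some members of which bring messages to the decay machinery. In myeloid leukaemia cells ALKBH5 is known for its part in the turnover of messages that leukaemia cells depend on. In a pulse and chase, the conversion rate of a gene (converted bases as a share of sequenced T bases, read here in percent) goes down both through decay of labelled RNA and through new synthesis without label, and says nothing of how abundant the transcript is.

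The file gives 1 conversion rate per gene and library, with no count of bases, so the depth behind each rate is unknown and no counting interval is given. A single CPM column, whose library is not stated, served as the measure of abundance. The tests took in the 10549 genes at a CPM of 5 or more whose rate was above 0 somewhere in the series, and 9855 of them (93.4%) had a rate above 0 in all 4 libraries. Replicates at 7.5 h correlated across genes, which are not independent replicates, with a Spearman coefficient of 0.555 in A5-KD and 0.437 in control, against 0.847 and 0.747 at 0 h. The label of the line was checked against marker genes. Of 13 markers of the monocytic lineage 10 passed the CPM limit, led by LYZ, PRTN3 and ELANE. CD14 (CPM 2.22), ITGAM (1.93) and MPO (0.185) did not pass. Of 7 lymphoid markers 1 passed, and none of the erythroid, epithelial and fibroblast markers did.

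Conversion rates at the end of the chase were higher in A5-KD cells nearly throughout the transcriptome. The median rate was 0.548% and 0.540% in the A5-KD libraries and 0.258% and 0.259% in the control libraries, so the groups were far apart and replicates nearly coincided. The mean of the library medians was 0.544% ± 0.00517 in A5-KD and 0.258% ± 0.000835 in control (SD, n = 2 each). Per gene, the A5-KD mean was above the control mean for 9548 of 10549 genes (90.5%), and the median difference was 0.94 on the log2(percent + 0.05) scale, a 1.91-fold higher rate. In an exact permutation test 2 libraries against 2 cannot give a two-sided p below 0.333, so the tests below come from limma fitted over all genes and all 16 libraries, with Benjamini-Hochberg adjustment at 0.05. By that test 3652 genes (34.6%) were higher in A5-KD and 5 (0.0474%) were lower. When 1 of the 4 libraries at 7.5 h was left out, between 1911 and 2524 genes were higher, and a fit to these 4 libraries alone called 2174.

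The shift was already there when the chase began. At 0 h the mean of the library medians was 1.21% in A5-KD and 0.552% in control, and the median log2 difference was 1.03, or 2.04-fold, with 6734 genes (63.8%) called higher. For each gene the mean rate at 7.5 h was also taken as a share of its own mean rate at 0 h. The median of these shares over genes was 50.6% in A5-KD and 55.3% in control. Not every rate fell: the mean at 7.5 h was above that at 0 h for 2611 tested genes in A5-KD and 2777 in control. Because the median log2 rates of the libraries at 7.5 h differ by 0.95 between the genotypes, here called the common shift, each library was also centred on its own median log2 rate. Centred differences say whether a gene stands above or below that shift, and a gene whose rate is the same in both genotypes has a centred difference near -0.95.

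**Figure D1:**
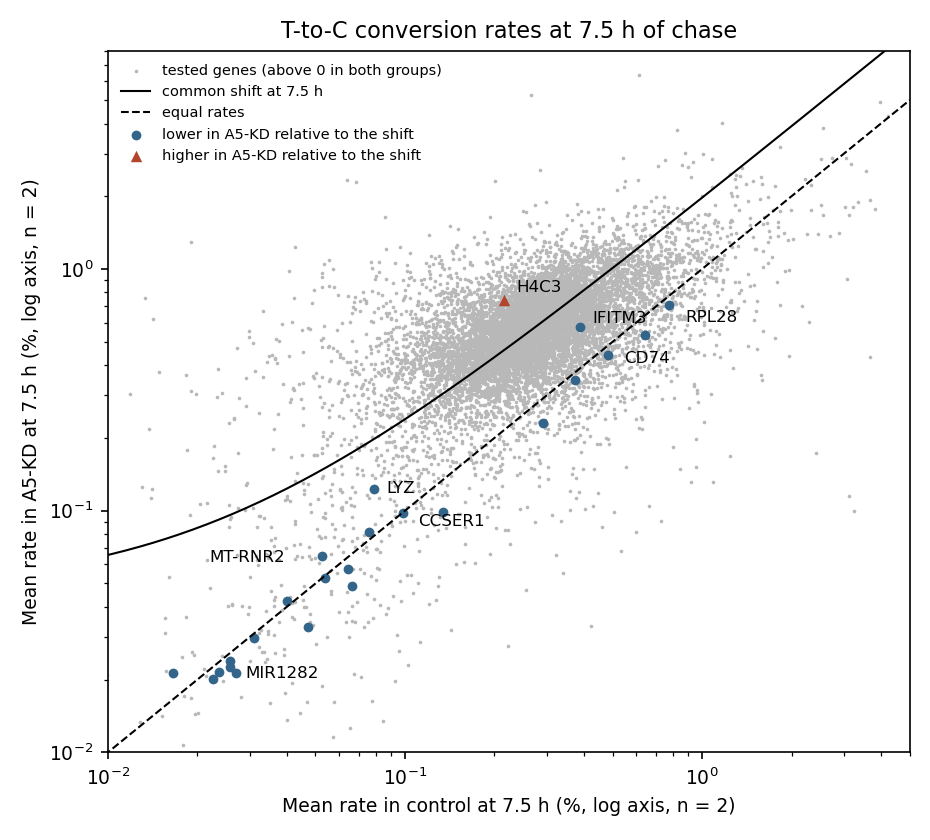
Mean conversion rate at 7.5 h per gene, A5-KD (vertical) against control (horizontal), both in percent on log axes, n = 2 libraries each. The solid line is the common shift and the dashed line marks equal rates; most genes called lower relative to the shift (blue circles) lie near the dashed line, LYZ and IFITM3 lie between the lines, and H4C3 (red triangle) lies above the solid one. NPHP4 and AC005329.3, listed at 0 in both libraries of a group, are not drawn; of all tested genes 132 had a mean of 0 in 1 or both groups and 10 lay outside the axes.

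The most abundant RNAs showed the shift with the least scatter. MALAT1, a nuclear long noncoding RNA with a CPM of 45110, had rates of 0.546% and 0.581% in A5-KD and 0.299% and 0.290% in control. Its uncentred log2 difference was 0.83 (SE 0.0490, limma adjusted p = 1.07e-05) and its centred difference -0.11. B2M, the light chain of MHC class I, had 0.334% and 0.319% in A5-KD and 0.177% and 0.175% in control. For IFI27, an interferon-induced mitochondrial protein, the A5-KD rates were 0.386% and 0.367% and the control rates 0.229% and 0.240%. In each of these the groups were separated by several times the distance between replicates. SERF2, LST1, MYL6, ST3GAL3 and FTH1, the other members of the 8 most abundant genes, were also called higher, and none of the 8 was called on the centred scale. The call of ST3GAL3 ended without the second control library (adjusted p = 0.0559).

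Among genes at or above the median CPM of 21.6, TAF8, DUS1L, PRIM1 and RFC4 had some of the greatest uncentred differences. TAF8 is a subunit of the general transcription factor TFIID. Its rates were 0.959% and 1.18% in A5-KD and 0.108% and 0.0561% in control (log2 difference 3.10, SE 0.580, limma adjusted p = 0.00261). RFC4, a subunit of the clamp loader of DNA replication, had 0.913% and 1.2% in A5-KD and 0.0843% and 0.152% in control (2.74, SE 0.332, adjusted p = 0.000248). PRIM1, the small primase subunit, had 1.16% and 1.25% in A5-KD and 0.275% and 0.0423% in control. Control rates of these genes were low and far apart in relative terms. PRIM1 lost its call without the second control library (adjusted p = 0.0608), and DUS1L, a tRNA dihydrouridine synthase, lost it without the first control library (0.0716), the second control library (0.107) or the second A5-KD library (0.0780). None of these 4 passed on the centred scale, RFC4 coming nearest with an adjusted p of 0.0599.

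The 5 genes called lower in A5-KD without centring were AGPAT4, EPM2A, THAP4, SNAP25-AS1 and AC005329.3. AGPAT4, an acyltransferase of phosphatidic acid synthesis, had 0.212% and 0.459% in A5-KD and 0.755% and 1.12% in control (log2 difference -1.41, SE 0.458, limma adjusted p = 0.0333). EPM2A, which encodes the glycogen phosphatase laforin, had 0.0232% and 0.175% in A5-KD and 0.623% and 0.389% in control. The groups do not overlap in either gene, as in 217 of all tested genes (2.06%) with A5-KD below control, against 7448 (70.6%) with A5-KD above. AC005329.3, an antisense RNA opposite NDUFS7, was listed at 0 in both A5-KD libraries and had 0.223% and 0.103% in control. All 5 calls ended when the first control library was left out, with adjusted p of 0.0718 for AGPAT4, 0.151 for EPM2A, 0.130 for THAP4, 0.338 for SNAP25-AS1 and 0.0705 for AC005329.3. The whole count was then 0, and over the other single left-out libraries it was 5 to 27.

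The targeted gene did not show the knockdown in this measure. ALKBH5 itself had a CPM of 4.55, just under the limit. Its rates at 7.5 h were 0.108% and 0.149% in A5-KD and 0.0982% and 0.191% in control, so the groups overlap. With the CPM limit at 1 its log2 difference was -0.09 (SE 0.864, limma adjusted p = 0.966). At 0 h the same gene had 3.31% and 2.46% in A5-KD and 0.812% and 0.386% in control. A conversion rate does not measure transcript level, and the knockdown was not checked here.

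Of the genes studied with ALKBH5 in leukaemia, as its targets or in the control of its gene, MYB, a transcription factor that keeps haematopoietic progenitors in an undifferentiated state, differed most. MYB had 0.832% and 0.520% in A5-KD and 0.140% and 0.176% in control (log2 difference 1.77, SE 0.314, limma adjusted p = 0.00193). Its centred difference of 0.83 did not pass (adjusted p = 0.388). AXL, a receptor tyrosine kinase, had 0.538% and 0.531% in A5-KD and 0.260% and 0.241% in control (0.96, adjusted p = 0.00572), and its centred difference was 0.01. KDM4C, an H3K9 demethylase, had 0.551% and 0.651% in A5-KD and 0.322% and 0.239% in control (0.99, adjusted p = 0.0123). Both thus sat on the common shift. PROS1, a ligand of the AXL receptor family, was called as well (1.49, adjusted p = 0.0418). The KDM4C call ended without the second control library (adjusted p = 0.0999) or the second A5-KD library (0.0550), and the PROS1 call without any single library (0.0734 to 0.162). MERTK, TACC3, POLR2A and GAS6 did not pass, and TYRO3, with a CPM of 0.741, was not tested.

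**Figure D2:**
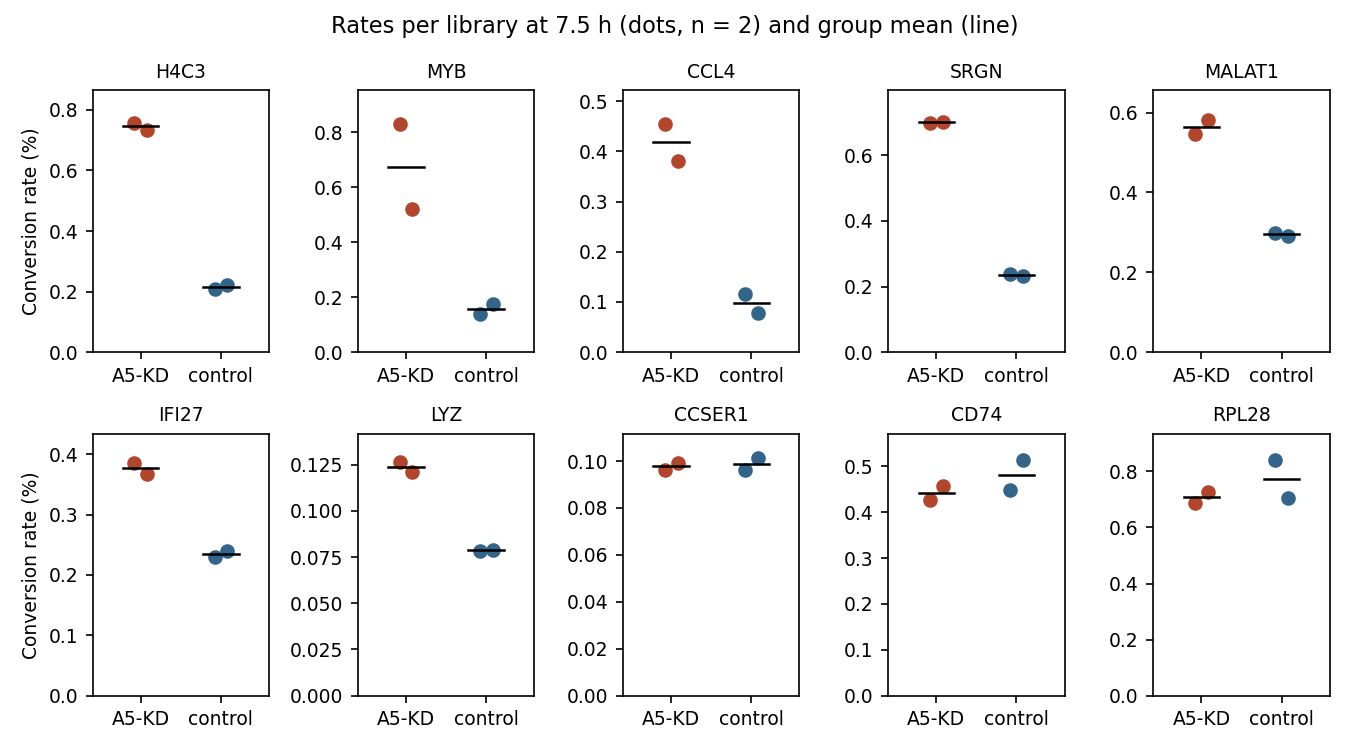
Conversion rate in percent at 7.5 h in each library (dots) with the group mean (line) for 10 genes described in the text, A5-KD left and control right, n = 2 each. In the top row and for IFI27 and LYZ both A5-KD libraries lie above both control libraries; for CCSER1, CD74 and RPL28 the groups overlap.

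After centring, 2 genes (0.019%) were called above the common shift and 24 (0.228%) below it. The groups did not overlap in 2078 genes (19.7%) with A5-KD above and 2384 (22.6%) with A5-KD below. Of all ways to split 4 libraries into 2 against 2, a share of 0.333 gives such a gap in either direction. H4C3, a gene for the replication-dependent core histone H4, had 0.758% and 0.733% in A5-KD and 0.210% and 0.221% in control. Its centred difference was 0.64 (SE 0.112, limma adjusted p = 0.0428). Leaving out any one of the 4 libraries ended that call, with adjusted p between 0.150 and 0.262. The other gene, NPHP4, encodes a ciliary transition zone protein and overlaps the more abundant KCNAB2 (CPM 397) on the opposite strand. NPHP4 was listed at 0 in both control libraries and had 0.983% and 0.818% in A5-KD, at a CPM of 7.75. Its call ended without the first control library (adjusted p = 0.132), the second (0.106) or the first A5-KD library (0.0729). Without group weights 75 genes were higher and 143 lower on this scale, and in a fit to the 4 libraries at 7.5 h alone none was called in either direction.

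The 24 genes below the shift were mostly genes whose rates hardly differed between genotypes. For 21 of them the uncentred log2 difference lay within 0.35 of 0. All 24 also had a centred difference below 0 at 0 h, where 22 passed the test, against 181 of all tested genes (1.72%). The 0 h libraries are separate, but both tests come from the same fit, which shares a residual spread per gene. The 0 h calls are thus not independent of those at 7.5 h. The 24 genes were abundant, with a median CPM of 415, and 15 were protein-coding. CCSER1, a coiled-coil serine-rich protein gene, gave 0.0963% and 0.0992% in A5-KD and 0.0963% and 0.101% in control. Its centred difference was -0.96 (SE 0.0615, limma adjusted p = 2.93e-05). At 0 h CCSER1 had a mean of 0.0964% in A5-KD and 0.103% in control, so its rate was alike in both genotypes and at both times. A processed pseudogene of thymosin beta 4, TMSB4XP8, lies within CCSER1 on the opposite strand, and its rates were 0.607% and 0.581% in A5-KD and 0.302% and 0.317% in control. MT-RNR2, the mitochondrial large ribosomal RNA, had 0.0694% and 0.0610% in A5-KD and 0.0532% and 0.0516% in control (centred -0.78, adjusted p = 0.000541). The centred calls of CCSER1, MT-RNR2, AC020656.1, AC018512.1 and TRABD2A stood without any single library at 7.5 h; between 5 and 14 genes were then called lower in all. These 5 calls ended, however, in a fit without the variance trend (adjusted p = 0.151 to 0.171) and in a fit to the 4 libraries at 7.5 h alone (0.0728 to 0.130).

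Several of the genes below the shift lie opposite a more abundant gene. Of the 24, 11 (45.8%) overlapped an opposite-strand gene with a higher CPM, against 1909 of all tested genes (18.1%). LYZ, the gene of lysozyme, had 0.126% and 0.121% in A5-KD and 0.0782% and 0.0789% in control. AC020656.1, the antisense RNA across its 3′ part, had 0.0561% and 0.0586% in A5-KD and 0.0624% and 0.0663% in control (centred -1.04, SE 0.0939, limma adjusted p = 0.000541). The sense gene was thus called higher without centring (log2 difference 0.43, adjusted p = 0.00401), while its antisense partner had lower values in A5-KD that did not pass (-0.09, adjusted p = 0.456). LYZ also fell below the common shift (-0.51, adjusted p = 0.0374), and this ended when any single library was left out (0.127 to 0.238). Whether counting used strand is not given in the sources used here, so reads of the 2 partners cannot be told apart. Without the genes under a more abundant opposite-strand gene, the tests called 6 genes lower and none higher after centring.

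Pairs of this kind also lie at IFITM3, at SERF2 and at FTH1. IFITM3, an interferon-induced membrane protein that restricts virus entry, had 0.591% and 0.559% in A5-KD and 0.383% and 0.393% in control. It was called higher without centring (log2 difference 0.51, adjusted p = 0.00121) and, like LYZ, lower than the common shift (-0.43, limma adjusted p = 0.0479), a centred call that did not hold without any one library (0.127 to 0.246). Its antisense neighbour AC136475.1 had 0.0361% and 0.0482% in A5-KD and 0.0438% and 0.0365% in control. SERF2, a small protein that modifies protein aggregation, had 0.283% and 0.293% in A5-KD and 0.143% and 0.152% in control. AC018512.1, on the strand opposite SERF2, had 0.0323% and 0.0270% in A5-KD and 0.0321% and 0.0300% in control, a level below the pseudocount of 0.05 percentage points, which draws small rates towards equality. Such low mean rates were found in 9 of the 24 genes and in 147 of all tested genes (1.39%). BEST1, a chloride channel gene overlapping the ferritin gene FTH1, had 0.0327% and 0.0333% in A5-KD and 0.0519% and 0.0424% in control. FTH1 itself had 0.415% and 0.397% in A5-KD and 0.241% and 0.231% in control. The part of strand overlap and of the pseudocount in these differences was not tested beyond the alternatives given.

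The microRNA gene MIR1282 was the only microRNA among the 24 and lies inside the same SERF2 locus, on the strand of AC018512.1. It had 0.0233% and 0.0245% in A5-KD and 0.0271% and 0.0246% in control (centred -0.98, SE 0.148, limma adjusted p = 0.0203), and the call ended without any single library (0.0814 to 0.220). Its mature product, from RefSeq on GRCh38.p14 at chr15:43793732-43793751, minus strand, is printed to show what would have to be read for this gene, with the seed (bases 2 to 8) in capitals.
hsa-miR-1282: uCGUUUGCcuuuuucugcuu
These 20 bases are far shorter than the span of 43793659 to 43793759 that the annotation gives the gene, all of it within the SERF2 gene. Polyadenylated RNA was sequenced, so the rate of MIR1282 describes reads that fall on this span and not the mature microRNA.

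CD74 and RPL28, which have no more abundant gene on the opposite strand, had like rates in both genotypes. CD74, the invariant chain of MHC class II, had 0.427% and 0.456% in A5-KD and 0.448% and 0.514% in control (centred -1.05, SE 0.159, limma adjusted p = 0.0203). RPL28, a protein of the large ribosomal subunit, had 0.688% and 0.728% in A5-KD and 0.841% and 0.706% in control (centred -1.06, SE 0.169, adjusted p = 0.0277). In both the groups overlap. GART, an enzyme of purine synthesis opposite the splicing factor gene SON, had 0.345% and 0.35% in A5-KD and 0.365% and 0.383% in control, whereas SON had 0.661% and 0.628% in A5-KD and 0.243% and 0.252% in control. The centred calls of CD74, RPL28 and GART all ended without any single library, with adjusted p of 0.0744 to 0.187 for CD74, 0.0976 to 0.238 for RPL28 and 0.135 to 0.223 for GART. KCTD2, SNX22, KLHDC8A, MIF-AS1, DIPK1A, DTWD2, TRABD2A, BX470102.1, AL669831.3, AC005329.3 and ENSG00000287967 were also among the 24.

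Medians of most gene lists lay near the common shift. The share of genes called higher without centring grew with abundance. It was 11.7% at a CPM of 5 to 10, 20.6% at 10 to 20 and 37.0% at 20 to 50. At a CPM of 50 to 200 it was 57.3%, and at 200 or more 83.7%. Counts in gene lists are to be read beside the share at like abundance. Medians of the centred difference are given with the counts, against -0.01 for all tested genes. Only CD74, RPL28, LYZ, IFITM3 and H4C3 passed on the centred scale among list members.

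Genes of mitosis and the spindle had a median above the common shift. Of 49 tested, 30 were called higher without centring and none lower. The list had a median CPM of 30.1, and 37.0% of all tested genes at a CPM of 20 to 50 were called higher. Its median centred difference was 0.29 at 7.5 h (SD of the list median between replicates 0.130) against -0.05 at 0 h. CCNB1, the mitotic cyclin B1, had 1.03% and 1.02% in A5-KD and 0.269% and 0.322% in control (log2 difference 1.64, SE 0.260, limma adjusted p = 0.00107). PTTG1, the securin that holds back separase, had 0.959% and 0.841% in A5-KD and 0.284% and 0.259% in control. PRC1, which bundles midzone microtubules, had 0.805% and 0.928% in A5-KD and 0.303% and 0.229% in control. In each of the 3 the groups were wide apart, and none passed on the centred scale (0.355 for PRC1). NCAPH, a condensin subunit, went the other way in its values, 0.528% and 0.851% in A5-KD against 1.17% and 0.979% in control, without passing (adjusted p = 0.401).

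Transcription and splicing genes were placed similarly. For RNA polymerase II subunits, 10 of 14 were called higher and the median centred difference was 0.28. POLR2J had 1.01% and 0.758% in A5-KD and 0.202% and 0.219% in control, while POLR2A, the catalytic subunit, had 0.652% and 0.511% in A5-KD and 0.268% and 0.488% in control and was not called (adjusted p = 0.300). SR splicing factors and their partners had 17 of 22 called and a median of 0.26. SRRM2, a scaffold of nuclear speckles, had 0.505% and 0.568% in A5-KD and 0.140% and 0.109% in control (log2 difference 1.75, SE 0.243, limma adjusted p = 0.000540). HNRNP proteins had 20 of 26 called and a median of 0.14. The median CPM was 80.1 for the RNA polymerase II subunits, 105 for the SR list and 127 for the HNRNP list. Of all tested genes at a CPM of 50 to 200, 57.3% were called higher.

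Histone genes were listed by kind. Replacement histones, which are made outside S phase from polyadenylated messages, had 6 of 9 called higher and a median centred difference of 0.31, close to the 0.29 seen at 0 h. H2AZ1 had 0.966% and 1.18% in A5-KD and 0.366% and 0.308% in control (log2 difference 1.53, SE 0.131, limma adjusted p = 4.17e-05). H3-3B had 0.779% and 0.720% in A5-KD and 0.273% and 0.295% in control. The replacement list had a median CPM of 40.2, and 37.0% of all tested genes at a CPM of 20 to 50 were called higher. Replication-dependent histones, whose messages mostly end in a stem-loop without a poly(A) tail, had 2 of 12 called, H4C3 and H1-3, with a median of -0.27 at 7.5 h, a between-replicate SD of 0.322 that is larger than the median itself, and a median of 0.32 at 0 h. The difference between the histone lists was not tested. H1-4 was listed at 0 in both A5-KD libraries and had 0.123% and 0.166% in control. Apart from H4C3 these genes were of low abundance, the list having a median CPM of 7.71. Of all tested genes at a CPM of 5 to 10, 11.7% were called higher.

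**Figure D3:**
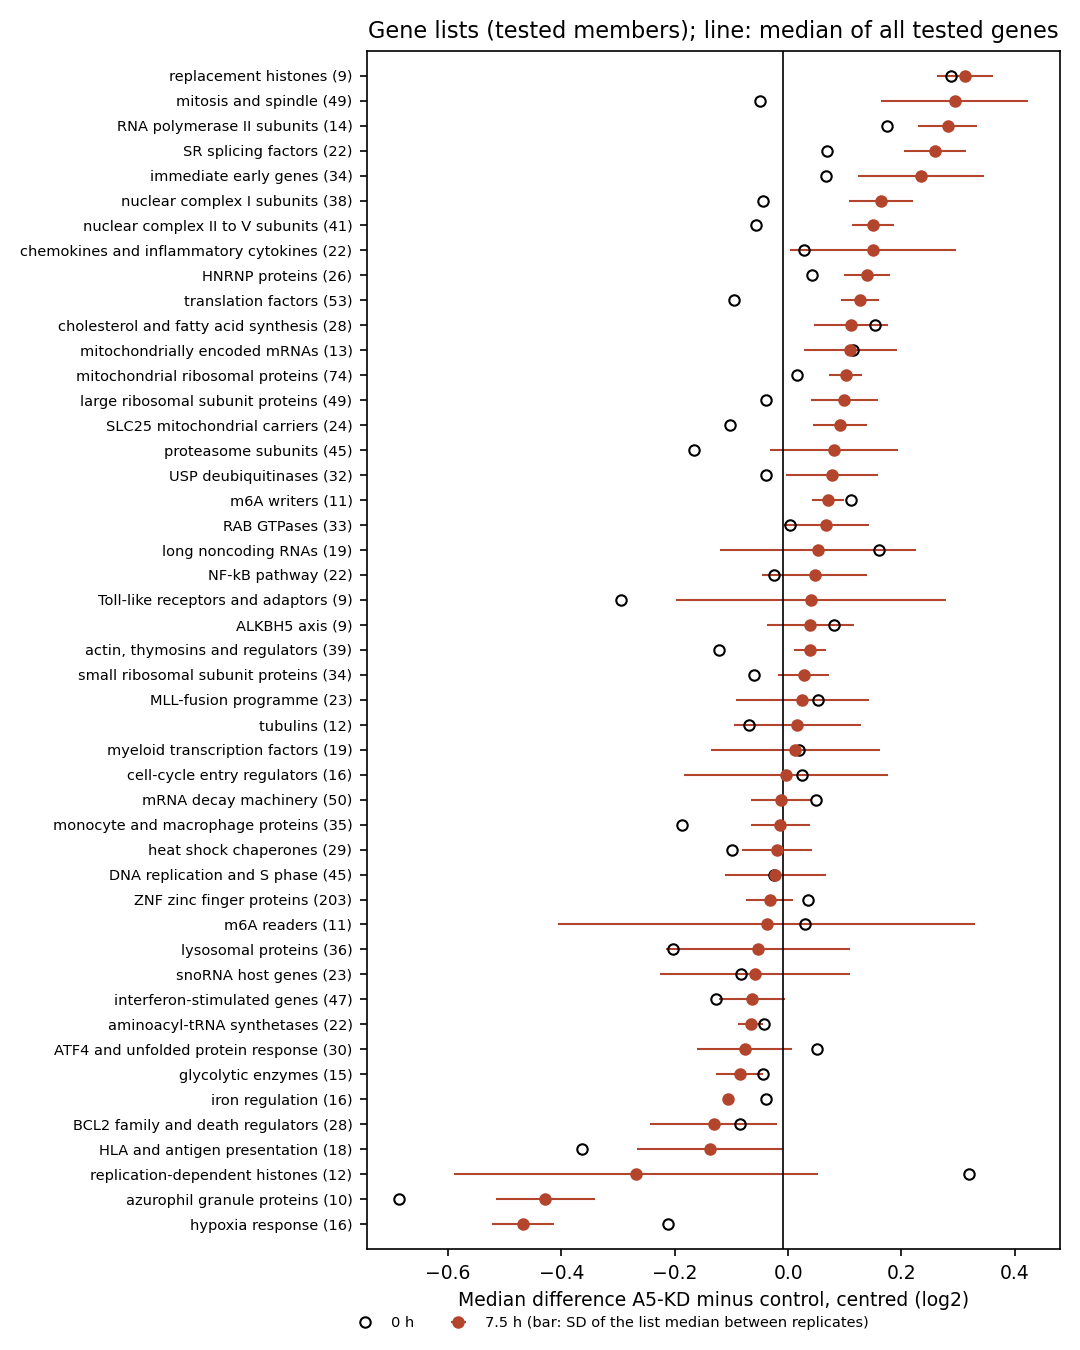
Median centred difference, A5-KD minus control on the log2 scale, for most gene lists, other than the marker lists, with at least 9 tested members (number in brackets), at 7.5 h (filled, bar: SD of the list median between replicates) and at 0 h (open). Replacement histones, mitosis and RNA polymerase II subunits are at the top, azurophil granule proteins and the hypoxia response at the bottom.

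Genes of respiration were called higher about as often as other abundant genes. Of 38 nuclear-encoded subunits of complex I, 31 were higher, with a median centred difference of 0.16 at 7.5 h and -0.04 at 0 h, and of 41 subunits of complexes II to V, 36 were higher, with medians of 0.15 and -0.06. NDUFC1 had 0.788% and 0.905% in A5-KD and 0.276% and 0.287% in control (log2 difference 1.43, SE 0.145, limma adjusted p = 9.22e-05). Over all tested genes at a CPM of at least 200, the median share of the 0 h rate found at 7.5 h was 116% in A5-KD and 114% in control. Rates of complex I genes had also risen over the chase in both genotypes, to a median of 162% of the 0 h rate in A5-KD and 156% in control. Their median CPM was 261, and that of complexes II to V was 574, well above the 21.6 of all tested genes. The shares called, 81.6% and 87.8%, thus lie near the 83.7% of all tested genes at a CPM of at least 200.

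Messages encoded by mitochondrial DNA moved with the shift, apart from MT-ND6. Of 13, 12 were called higher, the mean of the library medians of the list being 0.270% in A5-KD and 0.0977% in control. The list had a median CPM of 442, and 83.7% of all tested genes at a CPM of at least 200 were called higher. MT-CO3, a subunit of cytochrome oxidase, had 0.248% and 0.259% in A5-KD and 0.0946% and 0.0687% in control (log2 difference 1.21, SE 0.130, limma adjusted p = 0.000121). MT-CYB had 0.222% and 0.265% in A5-KD and 0.0907% and 0.0855% in control. MT-ND6, the single protein-coding gene of the mitochondrial light strand, had 0.0326% and 0.0400% in A5-KD and 0.0459% and 0.0374% in control. Its groups overlap, and its centred difference of -1.03 did not pass (adjusted p = 0.0599).

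Translation genes sat near the shift. Of 53 translation factors 39 were called higher, with a median centred difference of 0.13, and EIF5 had 0.623% and 0.642% in A5-KD and 0.237% and 0.214% in control. Of 49 large-subunit ribosomal protein genes 33 were called, with a median of 0.10, and of 34 small-subunit genes 26, with a median of 0.03. Their median CPMs were 375 and 454, and 83.7% of all tested genes at a CPM of at least 200 were called. For translation factors the median CPM was 91.0, and 57.3% of all tested genes at a CPM of 50 to 200 were called. PABPC1, the cytoplasmic poly(A)-binding protein, had 0.722% and 0.604% in A5-KD and 0.428% and 0.406% in control (log2 difference 0.61, limma adjusted p = 0.00697), less than the common shift, and its call ended without the second control library (0.0515).

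Signalling and cytokine genes gave mixed values. Of 22 chemokine and cytokine genes 10 were called higher, with a median centred difference of 0.15. CCL4 had 0.455% and 0.381% in A5-KD and 0.115% and 0.0790% in control (log2 difference 1.68, SE 0.186, limma adjusted p = 0.000146), and CCL3 had 0.530% and 0.503% in A5-KD and 0.157% and 0.145% in control. Both are chemokines that draw in monocytes and T cells, as is CCL2 for monocytes, and CCL2 had 0.772% and 0.754% in A5-KD and 0.449% and 0.456% in control. The difference was 0.69 for CCL2, below the common shift, and neither CCL4 (centred 0.73, adjusted p = 0.179) nor CCL3 (0.55, 0.194) nor CCL2 (-0.25, 0.393) passed on the centred scale. Of 34 immediate early genes 12 were called, with a median centred difference of 0.24. Median CPMs were 39.3 for the chemokine and cytokine list and 14.8 for the immediate early list. Of all tested genes, 37.0% were called higher at a CPM of 20 to 50 and 20.6% at 10 to 20. SGK1, a serum-induced kinase, had 0.419% and 0.268% in A5-KD and 0.535% and 1.04% in control, without passing (adjusted p = 0.174).

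Lists of myeloid and immune proteins gave differing medians. Of 35 monocyte and macrophage protein genes 16 were called higher, with a median centred difference of -0.01, the same as for all tested genes. Of 10 azurophil granule genes 3 were called higher, and the median centred difference was -0.43 at 7.5 h and -0.69 at 0 h. AZU1, the antimicrobial protein azurocidin, had 0.167% and 0.155% in A5-KD and 0.176% and 0.111% in control, and ELANE, neutrophil elastase, had 0.148% and 0.146% in A5-KD and 0.10% and 0.121% in control. In AZU1 the groups overlap, and in ELANE the A5-KD values were higher by an amount that did not pass (adjusted p = 0.325). SRGN, the proteoglycan of granules, stood apart with 0.700% and 0.702% in A5-KD and 0.238% and 0.233% in control (log2 difference 1.39, SE 0.111, limma adjusted p = 3.07e-05). HLA and antigen presentation genes had 6 of 18 called and medians of -0.14 at 7.5 h and -0.36 at 0 h. Of 47 interferon-stimulated genes 29 were called, with a median of -0.06. Median CPMs were 93.0 for the monocyte and macrophage list, 137 for the azurophil list and 108 for the interferon list. Of all tested genes at a CPM of 50 to 200, 57.3% were called higher. The HLA list had a median CPM of 32.5, and at a CPM of 20 to 50 the share was 37.0%. IFI6 had 0.183% and 0.188% in A5-KD and 0.124% and 0.114% in control (0.48, adjusted p = 0.0136), a call that ended without the first (0.0541) or second (0.0877) control library.

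The hypoxia list had the lowest median of those with at least 9 members. Of 16 genes 2 were called higher, EGLN1 and KDM3A, and the median centred difference was -0.47 at 7.5 h and -0.21 at 0 h. The list had a median CPM of 24.8, and 37.0% of all tested genes at a CPM of 20 to 50 were called higher. HIF1A, the oxygen-regulated transcription factor, had 0.426% and 0.398% in A5-KD and 0.307% and 0.415% in control (log2 difference 0.18, limma adjusted p = 0.655). HIF1AN, the hydroxylase that inhibits it, had 0.216% and 0.268% in A5-KD and 0.251% and 0.233% in control. The groups overlap in both. EGLN1, a prolyl hydroxylase acting on HIF1A, had 0.373% and 0.550% in A5-KD and 0.155% and 0.0797% in control (1.63, adjusted p = 0.00244).

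The list medians of the m6A machinery itself lay near the common shift. Of 11 writer genes 5 were called higher, with a median centred difference of 0.07, and of 11 reader genes 6, with a median of -0.04. The SD of the list median between replicates was 0.0287 for writers and 0.369 for readers, so the place of the reader list is uncertain. WTAP, which holds the methyltransferase at nuclear speckles, had 0.462% and 0.411% in A5-KD and 0.123% and 0.212% in control (log2 difference 1.19, SE 0.190, limma adjusted p = 0.00111). YTHDC1, the nuclear reader, had 0.569% and 0.895% in A5-KD and 0.107% and 0.215% in control (1.91, SE 0.359, adjusted p = 0.00271). The mRNA decay machinery had 22 of 50 called and a median of -0.01. Median CPMs were 20.2 for writers, 48.5 for readers, 31.4 for the decay list and 45.2 for the MLL fusion list that follows. Of all tested genes at a CPM of 20 to 50, 37.0% were called higher. In the programme driven by MLL fusions, of which THP-1 carries one, 11 of 23 were called with a median of 0.03. MEF2C had 0.607% and 0.540% in A5-KD and 0.236% and 0.206% in control (1.2, adjusted p = 4.59e-05), and MBNL1 had 0.704% and 0.635% in A5-KD and 0.239% and 0.209% in control (1.39, adjusted p = 2.08e-05).

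Among the larger annotated classes, antisense RNAs stood lowest. In 482 antisense genes the mean of the library medians was 0.246% ± 0.0295 in A5-KD and 0.143% in control (SD, n = 2), with a median centred difference of -0.48, and 50 of them (10.4%) were called higher. At 0 h the same class had 0.345% in A5-KD and 0.196% in control, with a centred median of -0.53. The median CPM of the antisense genes was 13.7, and 20.6% of all tested genes at a CPM of 10 to 20 were called higher. In the 290 lincRNAs the centred median was -0.24, and in the 8981 protein-coding genes 0.01. The 389 processed pseudogenes had 0.575% in A5-KD and 0.251% in control, a centred median of 0.18, and rates that had gone up during the chase to a median of 170% of the 0 h value in A5-KD and 169% in control. Processed pseudogenes are near copies of spliced messages, and reads may be shared between them and their parent genes. Genes with no annotated neighbour on the opposite strand had a centred median of 0.05 (3799 genes), those under a more abundant opposite-strand gene -0.16 (1909 genes), and those under one with a CPM at least 10-fold higher -0.27 (369 genes).

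**Figure D4:**
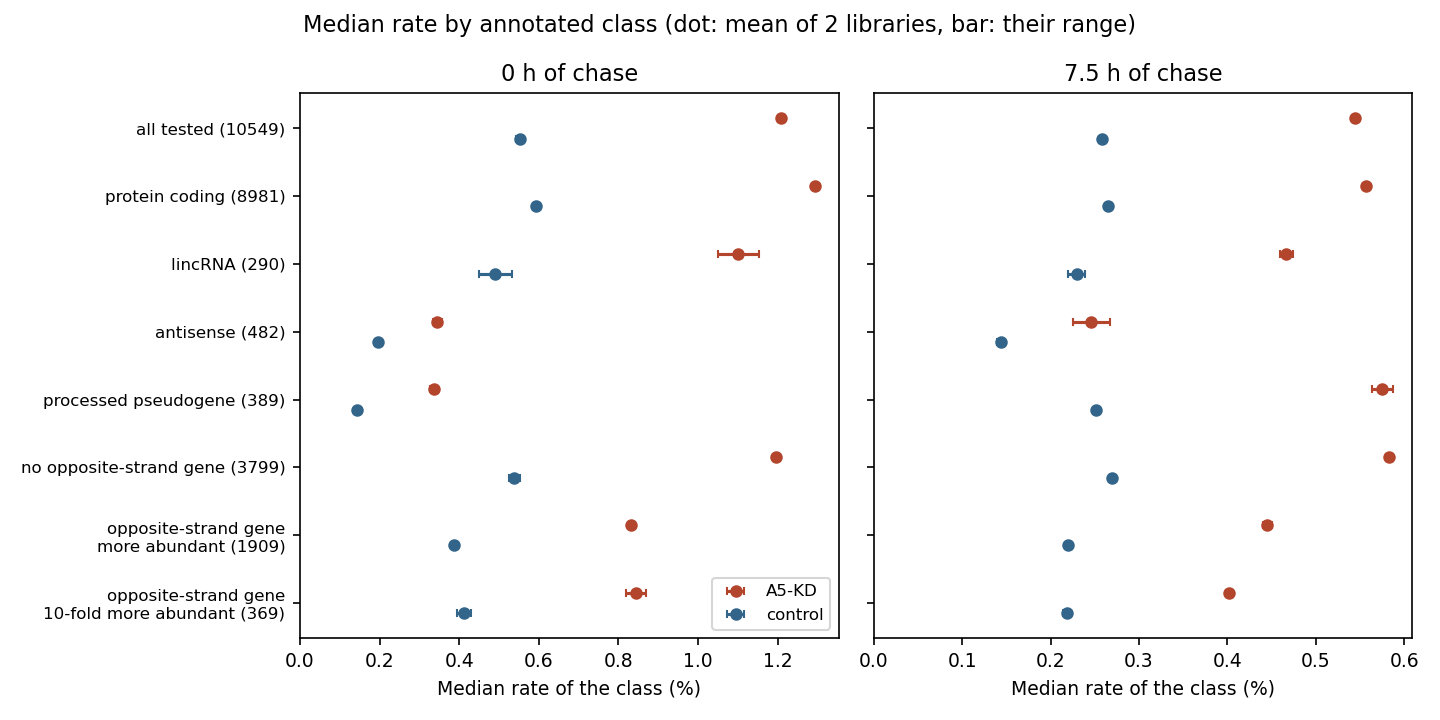
Median conversion rate in percent of annotated gene classes (number of tested genes in brackets) at 0 h and 7.5 h, A5-KD above control in each pair; dots are means of 2 libraries and bars their range. Processed pseudogenes have higher rates at 7.5 h than at 0 h in both genotypes, and of the classes drawn antisense RNAs have the lowest rates at 7.5 h.

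Whether the genotype difference at 7.5 h differed from that at 0 h was tested directly, as the difference of the 2 centred effects. No gene passed in either direction by limma, the smallest adjusted p being 0.321. At an unadjusted p under 0.05, 471 genes (4.46%) had a higher effect at 7.5 h and 303 (2.87%) a lower one. With a pseudocount of 0.2 the test called 20 genes higher and 1 lower, and without the first control library at 7.5 h it called 1 higher. The smallest p by the naming rule belonged to TSTA3, DEF8 and RFC4 among those with a higher effect and to AGPAT4, GANAB and ST7 among those with a lower effect, none of which passed. TSTA3, an enzyme of GDP-fucose synthesis, had 1.17% and 1.03% in A5-KD and 0.210% and 0.0939% in control at 7.5 h, and means of 0.421% in A5-KD and 0.418% in control at 0 h (difference of effects 2.67, unadjusted p = 6.41e-05). ST7 had 0.240% and 0.334% in A5-KD and 0.292% and 0.287% in control at 7.5 h, and means of 1.75% in A5-KD and 0.657% in control at 0 h (-1.26, unadjusted p = 0.00141). TSTA3 thus had like means at 0 h and groups far apart at 7.5 h, while ST7 had means far apart at 0 h and overlapping groups at 7.5 h.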

How the data were processed

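T-to-C conversion rates were analysed in 4 libraries at 7.5 h of chase within a fit of all 16. The deposited table holds 1 fraction per gene and library for 60564 genes, which was read as the conversion rate from the values and the assay and analysed in percent. It also holds 1 CPM column, per the file headers, whose library is not stated. CASAVA, HISAT2 2.1.0 and hg38 were used, per the submitters' processing notes; the sources used here do not give the annotation, any variant masking or strand use in counting. By elimination, the S columns were read as A5-KD, since C stands for control. Unused columns of single samples numbered 0.

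Of 10553 genes at a CPM of 5 or more, 4 had no rate above 0 and 10549 were tested. Depth per rate is unknown, and no library without 4sU was used, so background mismatches were not measured. log2(percent + 0.05) was fitted with limma 3.58.1 (R 4.3.3) as 8 group means, with 1 weight per group, since late libraries were noisier, Benjamini-Hochberg adjustment at 0.05 and a variance trend in log2(CPM + 0.01). Tests were run uncentred and with each library centred on its median, and were tested on simulated data. A lone library left in a group kept its group's weight from the full fit, in which the left-out library took part. The residual spread then came from the other groups. Replicate numbers did not pair libraries (correlations of replicate deviations -0.0396 to 0.0376 over 28 pairs of groups). Names and strand overlap came from the file, the reference gene names and GENCODE 29, which matched 10498 of the 10553 genes. Named genes were, per direction, up to 10 centred and 5 uncentred calls with the largest differences at or above the median CPM, with rates above 0 and no overlap, 3 by smallest p for the difference between times, the 8 of highest CPM, an ALKBH5 list, and up to 4 members per gene list by smallest centred p. Some genes chosen by these rules are not reported here; all tests and counts include them. The other centred calls, both partners of overlapping genes, and a few list members beyond the rule (MT-CYB, ELANE, KDM3A and MEF2C) were named after their values were seen. The comparison, the gene lists and the genes were chosen with earlier results of these data known.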

Additional observations from a re-analysis of the deposited data

How the results depend on the processing

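The median difference of 0.94 was 1.02 with a pseudocount of 0.02, 0.67 with 0.2, 0.92 and 0.96 with a CPM minimum of 1 and 20, 0.92 with rates above 0 in all 4 libraries, 0.91 to 0.95 without single libraries, and 0.96 without genes under a more abundant opposite-strand gene, an alternative chosen after seeing the data. The 3652 uncentred higher calls became 2174 in the 4 libraries alone and 1911 to 2524 without single libraries. The 5 lower calls became 13 with a pseudocount of 0.2, 9 and 3 with a CPM minimum of 1 and 20, 8 with rates above 0 in all 4 libraries, 38 without group weights, 8 in the 4 libraries alone, 8 without the variance trend, 8 with the replicate block, 0 to 27 without single libraries, and 3 without genes under an opposite-strand gene. The 2 centred higher calls became 19 with a pseudocount of 0.2, 1 with a CPM minimum of 1, 75 without group weights, 0 in the 4 libraries alone, 1 without the trend, 1 with the replicate block, 0 to 3 without single libraries, 1 when centred on genes at a CPM of 50 or more, and 0 without genes under an opposite-strand gene. The 24 centred lower calls became 12 and 83 with a pseudocount of 0.02 and 0.2, 42 with a CPM minimum of 20, 143 without group weights, 0 in the 4 libraries alone, 1 without the trend, 5 to 14 without single libraries, and 6 without genes under an opposite-strand gene. The difference between times gave 20 higher and 1 lower with a pseudocount of 0.2, and 0 to 1 higher without single libraries. The cause of these changes was not tested, save that fewer libraries and genes entered some fits. The replicate block otherwise gave 3552 uncentred higher and 22 centred lower calls; replicate numbers are shared labels only and did not pair libraries. Of 6577 values of 233 single genes under these alternatives, 6218 kept their side of the threshold, 79 values changing sign without being called either way, 256 lost the call, 103 gained it and 0 called values reversed. Of 712 counts of called list members 127 were over 1.5 times apart, and of 763 list medians 123 moved by more than the replicate spread. Depth per rate is unknown, 2 libraries per group limit the precision, and unlabelled background was not measured.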

Other observations

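Other gene lists at 7.5 h gave centred medians close to that of all tested genes (-0.01). Of 45 proteasome subunits 32 were called higher in A5-KD without centring, with a centred median of 0.08 at 7.5 h and -0.16 at 0 h, and of 74 mitochondrial ribosomal proteins 48, with medians of 0.10 and 0.01. Of 28 genes of cholesterol and fatty acid synthesis 13 were called, with a median of 0.11, and of 29 heat shock chaperones 19, with a median of -0.02. The 203 zinc finger genes of the ZNF family, with a median CPM of 12.6, had 42 called and a median of -0.03. Lysosomal proteins had 13 of 36 called and a median of -0.05, and iron regulation genes 5 of 16 and -0.11. Median CPMs were 141 for the proteasome, 72.4 for the mitochondrial ribosomal, 88.1 for the chaperone and 50.5 for the lysosomal list. They were 21.0 for the cholesterol and fatty acid list and 33.0 for the iron list. Of all tested genes, 57.3% were called higher at a CPM of 50 to 200, 37.0% at 20 to 50 and 20.6% at 10 to 20. None of the members of these lists passed on the centred scale.

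Tested genes were also sorted into 5 bins of nearly equal size by the change of the control rate between 0 and 4.5 h, in libraries that the comparison at 7.5 h does not use apart from the shared fit. In the bin with the steepest loss the mean of the library medians at 7.5 h was 0.449% in A5-KD and 0.209% in control, and the centred median was near 0. In the bin at the other end the rates rose, to a median at 7.5 h of 135% of the 0 h rate in A5-KD and 148% in control. This bin had a mean of the library medians at 7.5 h of 0.611% in A5-KD and 0.268% in control, with a centred median of 0.08. Of the 24 genes called below the common shift, 22 were in the bin next to it. In that bin the median over genes of the 7.5 h rate as a share of the 0 h rate was 84.5% in A5-KD and 88.1% in control.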
